A study of Rattus norvegicus with 9 samples.

Results

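Rat synovial fibroblasts that had received IL-1β and shared a transwell with dermal fibroblasts were compared with untreated synovial fibroblasts, gene by gene. The comparison takes 6 of the 9 messenger RNA libraries of the study, 3 from the co-culture and 3 from the control. It covers the 11372 of 17298 listed genes whose mean level over the 9 libraries was at least 1 FPKM, a measure of fragments per length of transcript and of sequencing effort. All cells were wild-type synovial fibroblasts of Rattus norvegicus. Control cells were in normal culture without IL-1β. Co-culture cells were stimulated with IL-1β and then grew in the lower chamber with dermal fibroblasts in the upper chamber, across a porous membrane; by their labels the libraries hold the synovial cells. Both kinds of cell were freed from tissue with collagenase, and no sort is named. Whether IL-1β stayed in the medium during co-culture is not stated. The remaining 3 libraries, from cells in normal culture with IL-1β and no dermal fibroblasts, are given beside the 2 groups for reference. They also counted in the 1 FPKM filter and in the estimate of spread. A gene low in both compared groups could thus pass the filter through the IL-1β libraries alone. The dose and duration of IL-1β, the age and sex of the rats and the passage of the cells were absent from the labels read here. No group had dermal fibroblasts without IL-1β, so what IL-1β did and what the dermal fibroblasts, the insert or the shared medium did cannot be told apart in this comparison. Nothing in the labels ties the 3 libraries of a group to separate rats or cultures, and each p-value therefore reflects only library-to-library spread, part of which may be technical.

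Interleukin 1β is an alarm cytokine of the inflamed joint. Its receptor signals through MyD88 and IRAK kinases to the NF-kB factors and to MAP kinases, and these, with C/EBP factors, switch on genes for cytokines, chemokines, prostaglandin synthesis and matrix-cutting enzymes. Synovial fibroblasts line the joint cavity, secrete lubricin and hyaluronan, lay down collagen, and in arthritis become a main source of such mediators. The response is braked by its own products, among them the NF-kB inhibitor IκBα, decoy receptors and enzymes that destroy cytokine transcripts.

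Against untreated cells, 2307 of 11372 genes (20.3%) passed an adjusted p of 0.05 (limma with Benjamini-Hochberg adjustment over all genes tested): 1408 were higher in co-culture (12.4%) and 899 lower (7.91%). The changes were small for the most part. The median size among the genes called was 0.23 on the log2(FPKM + 1) scale, with quartiles of 0.17 and 0.35, and 2030 of them (88%) changed by less than 0.5. Only 48 reached 1, of which 42 were higher and 6 lower. The 3 co-culture libraries lay wholly above or wholly below the 3 control libraries for 4295 genes (37.8%), and 3752 genes had an unadjusted p under 0.05. The 20 largest rises and 20 largest falls named below were picked among called genes without overlap. For them, the lack of overlap was set by that choice. The balance of directions depended on scaling: higher genes made up 61% of calls as deposited, 51.6% after median-of-ratios scaling (1146 higher, 1073 lower) and 46.4% after quantile normalization (1008 higher, 1166 lower). Some of the list counts below moved with scaling, and for several lists the counts under other scalings stand beside them. List counts are to be read against the shares of all genes, 12.4% higher and 7.91% lower. Libraries were alike within a group, with rank correlations across genes of 0.9946 to 0.9959, and control against co-culture gave 0.9896 to 0.9912. FPKM sums of the 6 libraries were 679774 to 732278, and sequencing depth is unknown.

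**Figure D1:**
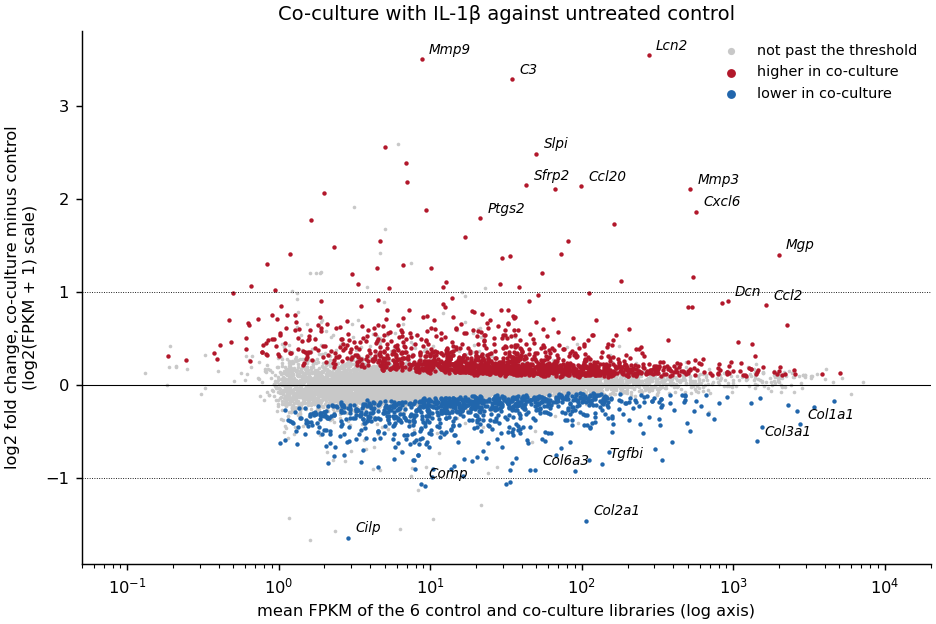
Each point is 1 of the 11372 genes tested, placed by its mean FPKM in the 6 control and co-culture libraries (horizontal, log axis) and its log2 fold change, co-culture minus control (vertical, log2(FPKM + 1) scale). Red points were higher and blue points lower at an adjusted p under 0.05; most lie within 0.5 of 0, and the 42 rises past 1 reach higher than the 6 falls past -1.

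Gene levels are written below as mean ± SD of FPKM over 3 libraries, always in the order control, co-culture with IL-1β, and IL-1β alone; fold changes on the log2(FPKM + 1) scale are co-culture minus control with their standard error. The cultures carried the transcripts of fibroblasts. Vim, the intermediate filament of mesenchymal cells, stood at 4902 ± 52.7, 4342 ± 58.8 and 2114 ± 2.73 FPKM, S100a4 at 6189.7 ± 145, 5796 ± 496 and 5741 ± 337 FPKM and Col1a1 at 3169.5 ± 113, 2369.7 ± 18.9 and 1587 ± 54.8 FPKM. Markers of blood and vessel cells were uneven: the leukocyte gene Ptprc read 0.04 to 0.13 FPKM and the endothelial gene Pecam1 0.12 to 0.28 FPKM in the 6 libraries, and C1qb, of macrophages, was listed at 0 in all 6, whereas Cd14 read 12.87 to 14.04 FPKM in control and 15.5 to 16.05 in co-culture, Lyz2 9.65 to 11.39 and 7.03 to 8.55, and the endothelial gene Egfl7 13.68 to 14.12 and 11.86 to 14.53. Summed over their marker lists, macrophage and leukocyte genes read 29.62 to 31.81 FPKM in control and 30.8 to 33.1 in co-culture, and endothelial genes 15.5 to 15.99 and 13.23 to 16.11. Fewer cells of a type and less RNA per cell cannot be told apart in such bulk samples.

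Secreted defence proteins were among the genes furthest above control. Lcn2, lipocalin 2, an iron-trapping protein of innate defence, read 38.3, 42.4 and 48.4 FPKM in the control libraries and 525, 516 and 488 FPKM in the co-culture libraries. C3, the central protein of the complement cascade, read 5.88, 5.92 and 5.14 FPKM in control and 64.1, 62.3 and 64.5 FPKM in co-culture. Slpi, an inhibitor of leukocyte elastase, read 13.7, 14.9 and 14.8 FPKM in control and 92.2, 79.5 and 84.6 FPKM in co-culture. In each of these 3 genes, which were picked among genes without overlap, the lowest co-culture library lay far above the highest control library. Lcn2 rose by 3.54 ± 0.07 on the log2 scale (11.8-fold, limma adjusted p = 2.6e-10), C3 by 3.28 ± 0.05 (11.3-fold, adjusted p = 3.1e-12) and Slpi by 2.48 ± 0.06 (5.92-fold, adjusted p = 1.3e-10). Even so, all 3 were well below their levels with IL-1β alone, 3963 ± 131, 266 ± 10.8 and 562 ± 31.4 FPKM. Pcp4, a small calmodulin-binding protein, also stood among the largest rises, at 0.75 ± 0.242, 9.27 ± 0.86 and 95.7 ± 7.44 FPKM (log2 fold change 2.56 ± 0.10).

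Of 15 acute phase and antimicrobial genes tested, 13 were higher and 0 lower; their median log2 fold change was 0.64 against 0.02 over all genes. Serum amyloid A3, listed under the symbol Saal1 with the gene identifier of Saa3, was at 1.89 ± 0.282, 12.1 ± 0.417 and 116 ± 0.446 FPKM, a 6.39-fold rise. Ptx3, a pentraxin that binds microbes, was at 113 ± 1.14, 248 ± 1.67 and 631 ± 8.7 FPKM, and Lbp, which hands bacterial lipopolysaccharide to its receptor, at 94.7 ± 1.22, 154 ± 4.63 and 619.8 ± 3.7 FPKM. The 2 genes without a call were low ones, S100a8, which read 2.09, 1.74 and 0.71 FPKM in control and 0, 1.63 and 0.69 FPKM in co-culture, and Il4i1, at 1.22 ± 0.252, 1.14 ± 0.165 and 0.993 ± 0.251 FPKM; both were named after their values were seen. Of 15 complement genes, 8 were higher and 2 lower. Cfb, factor B of the alternative pathway, rose with C3, at 5.57 ± 0.318, 14.7 ± 0.286 and 68.6 ± 3.42 FPKM, as did the regulators Serping1, the C1 inhibitor (26.1 ± 0.789, 44.4 ± 3.05 and 68.7 ± 0.907 FPKM), and Cd55, which dismantles C3 convertases (26.6 ± 1.13, 44.5 ± 0.58 and 107 ± 3.59 FPKM). C1s, a protease of the classical pathway, stood at 211 ± 2.92, 281 ± 1.11 and 388 ± 8.62 FPKM. The 2 that fell were C4b, a complement component named after its values were seen, at 11.4 ± 0.236, 9.06 ± 0.52 and 6.84 ± 0.263 FPKM, and Cfd, factor D, also an adipocyte product, at 156 ± 1.94, 135 ± 8.63 and 144 ± 8.02 FPKM.

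Promoter stretches of 8 of the most risen genes are shown because they hold a C/EBP motif, which 6 of the 14 matched promoters of such genes lack. Among the 20 genes with the largest rise, 14 had a promoter in the RefSeq table (assembly GRCr8), taken from 250 bases before to 50 bases after the gene start. The C/EBP motif TTGCNNAA, searched on both strands, occurred in 8 of these 14 (57.1%), in 1 of 14 matched promoters of the 20 most fallen genes (7.14%), and in 743 of 9087 promoters of all genes tested (8.18%). The stretches of 60 bases around the match follow, 5′ to 3′ on the gene's own strand, with the 8 matching bases in capitals; in Cxcl6 and Ptgs2 the match is on the opposite strand and reads as its reverse complement.
C3: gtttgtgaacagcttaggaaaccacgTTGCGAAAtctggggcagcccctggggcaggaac
Lcn2: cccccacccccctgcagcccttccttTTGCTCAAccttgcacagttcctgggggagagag
Saal1: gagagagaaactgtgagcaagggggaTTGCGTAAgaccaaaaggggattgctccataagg
Cxcl6: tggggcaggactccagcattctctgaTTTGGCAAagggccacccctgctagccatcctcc
Mmp3: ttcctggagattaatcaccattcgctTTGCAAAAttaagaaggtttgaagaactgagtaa
Ptgs2: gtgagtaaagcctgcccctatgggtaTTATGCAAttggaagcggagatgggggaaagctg
Ptges: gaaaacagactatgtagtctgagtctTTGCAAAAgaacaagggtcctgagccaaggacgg
Sfrp2: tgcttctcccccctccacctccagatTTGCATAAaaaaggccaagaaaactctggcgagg
The C3 stretch lies at chr9:2201410-2201469, minus strand, Lcn2 at chr3:36081938-36081997, minus strand and Mmp3 at chr8:12925084-12925143, plus strand. Those of Cxcl6 (chr14:17596574-17596633, minus strand), Ptges (chr3:34587175-34587234, minus strand), Ptgs2 (chr13:64713897-64713956, plus strand), Saal1 (chr1:106358472-106358531, minus strand) and Sfrp2 (chr2:171387455-171387514, plus strand) are in the same build. The match lay closest to the gene start in Sfrp2, with its first base 55 bases before it, and farthest in Ptges, with its first base 221 bases before it. The NF-kB decamer consensus occurred in 3 of the 14 risen promoters (21.4%), 1 of the 14 fallen (7.14%) and 452 of all 9087 (4.97%); the AP-1 motif TGANTCA in 2 (14.3%), none and 417 (4.59%). A CArG box occurred in none of the risen, 1 of the fallen (7.14%) and 113 of all promoters (1.24%). These are matches of letters, not tested for binding, and the most risen genes were chosen by the same fold changes that are described.

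Chemokines, the small secreted proteins that draw leukocytes, were nearly all higher: 13 of 14 tested, with 1 lower and a median log2 fold change of 1.04, 8 of them past 1. Cxcl2 and Ccl3, both among the 13, passed the filter only through their IL-1β libraries. Among the chemokines higher in co-culture were neutrophil attractants of the CXC class. Cxcl6 read 248, 238 and 248 FPKM in control and 851, 939 and 893 FPKM in co-culture, and Cxcl3 read 75.9, 72.4 and 75.5 and 253, 249.8 and 247 FPKM. The rises of both genes, picked among genes without overlap, were 1.86 ± 0.04 and 1.73 ± 0.04 on the log2 scale (limma adjusted p = 1.3e-10 and 1.3e-10). Under IL-1β alone they read 4629 ± 199.8 and 2434 ± 142 FPKM. Cxcl1, another of this class, stood at 336 ± 20.2, 752 ± 11.3 and 5794 ± 222 FPKM. Ccl20, which draws Th17 cells and dendritic cells, read 37.1, 33.6 and 36.9 FPKM in control and 159, 159.8 and 165 FPKM in co-culture, a 4.49-fold rise, against 1979 ± 75.9 with IL-1β alone. The monocyte attractant Ccl2 was already abundant in control and went from 1172 ± 15.4 to 2127 ± 46 FPKM, with 6819.9 ± 202 under IL-1β alone. Cxcl12, the homing signal for CXCR4-bearing cells, went from 359 ± 1.71 to 641 ± 10.4 FPKM, against 1294 ± 19.8. Ccl12 rose from near 0: it read 0.23, 0 and 0.23 FPKM in control and 3.56, 3.15 and 4.78 FPKM in co-culture, against 9.48, 8.69 and 11.5 FPKM with IL-1β. The member that fell was Cxcl14, at 6.46 ± 0.256, 4.92 ± 0.0907 and 4.61 ± 0.525 FPKM, a gene named after its values were seen.

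**Figure D2:**
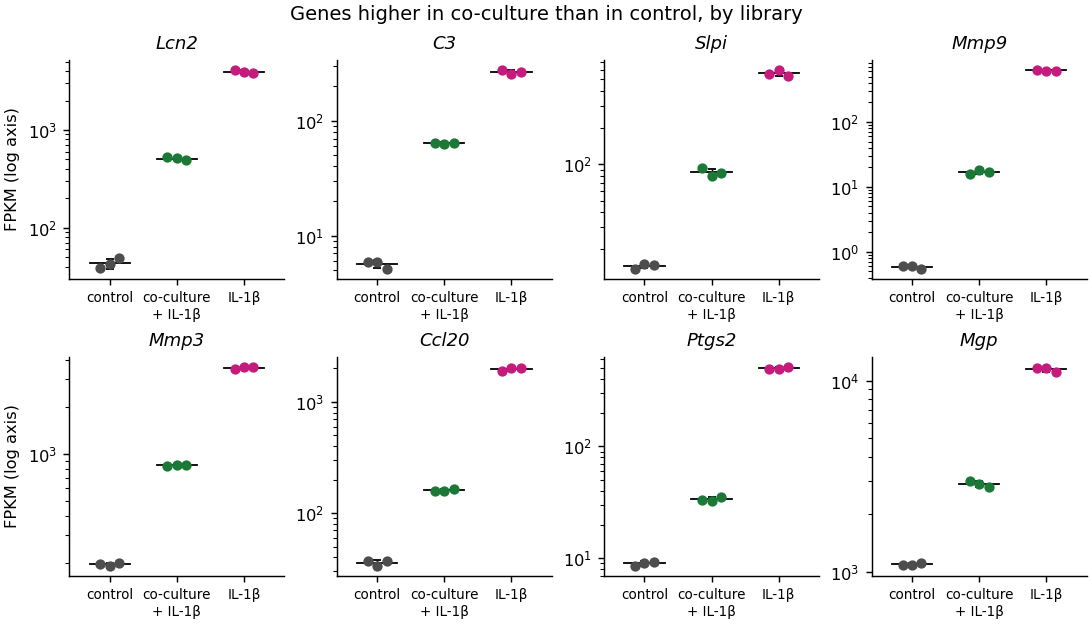
FPKM of 8 genes (log axes) in each of the 9 libraries, with points for libraries and bars for mean ± SD of 3. In every panel the 3 co-culture libraries lie between the control and the IL-1β libraries and overlap neither.

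Cytokines and growth factors of inflammation followed, with 12 of 19 tested higher, none lower and a median of 0.43. The number higher was 10 under either scaling and 10 or 11 with 1 library left out. Il1a and Il1b, both among the 12, passed the filter only through their IL-1β libraries. Lif, a cytokine of the interleukin 6 family, read 3.19, 4.24 and 2.91 FPKM in control and 14.6, 16.1 and 15.2 FPKM in co-culture. Il6, the family's inducer of acute phase proteins, read 39.98, 36.6 and 41.9 and 105, 104 and 109 FPKM, a rise of 1.40 ± 0.05 on the log2 scale (2.69-fold, adjusted p = 3.5e-09). Csf3, which drives neutrophil production, read 0.17, 0.17 and 0.23 FPKM in control and 3.54, 2.97 and 2.7 FPKM in co-culture. All 3 rose, but their IL-1β levels of 249 ± 22.8, 1069 ± 42.3 and 328 ± 12.3 FPKM were far higher. The IL-1α gene rose to a low level: Il1a read 0.07, 0.07 and 0.03 FPKM in control and 1.48, 1.63 and 1.73 FPKM in co-culture, against 85.3 ± 3.43 with IL-1β alone. Hbegf, an EGF receptor ligand of lining cells, was at 30.2 ± 0.655, 46 ± 0.901 and 61.4 ± 1.55 FPKM. Csf1, the macrophage growth factor and the most abundant member, stood at 383 ± 6.61, 423 ± 2.39 and 499 ± 5.16 FPKM, a call that was lost after quantile normalization (adjusted p = 0.303). Some mediators read near 0 in control and co-culture and passed the filter only through their IL-1β libraries, where they were abundant. Their contrast with that group was therefore set by the filter, and at such levels a difference from control could be missed. Il23a, a subunit of interleukin 23, read 0.27, 0.23 and 0.05 FPKM in control, 0.18, 0.18 and 0.18 FPKM in co-culture and 69.5, 66.5 and 74.1 FPKM with IL-1β (adjusted p against control = 0.99). Csf2 was listed at 0, 0 and 0 FPKM in control and 0.78, 0.36 and 0 FPKM in co-culture (adjusted p = 0.12, but 0.0016 without co-culture replicate 3), against 137, 127 and 136 FPKM with IL-1β. Both genes were named after their values were seen.

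Genes at 3 steps from membrane lipid to prostaglandin E2 were higher. Pla2g2a, a secreted phospholipase that frees arachidonic acid, read 1.25, 1.31 and 2.1 FPKM in control and 11.1, 14.9 and 10.8 FPKM in co-culture. Ptgs2, the inducible cyclooxygenase, read 8.56, 9.09 and 9.32 FPKM in control and 33.5, 32.2 and 35.3 FPKM in co-culture. Ptges, the synthase of prostaglandin E2, read 40.3, 39.2 and 42.7 FPKM in control and 126, 121 and 116 FPKM in co-culture. The rises of these 3, picked among genes without overlap, were 2.38 ± 0.15, 1.79 ± 0.04 and 1.55 ± 0.04 on the log2 scale (limma adjusted p = 1.2e-05, 1.3e-10 and 2.6e-10). Their IL-1β levels were 125 ± 4.41, 500.03 ± 10.3 and 932 ± 15.4 FPKM. The cytosolic phospholipase gene Pla2g4a stood at 18.1 ± 0.563, 29.2 ± 0.516 and 92.6 ± 4.38 FPKM. The prostaglandin-degrading enzyme gene Hpgd, named after its values were seen, fell, at 27.8 ± 0.356, 20.4 ± 1.16 and 7.49 ± 0.433 FPKM. In the whole list of 22 prostaglandin and nitric oxide genes, 10 were higher and 1 lower. The number higher was 9 after quantile normalization and 7 to 11 with 1 library left out. The number lower was 2 after quantile normalization and 3 without co-culture replicate 2. The inducible nitric oxide synthase gene Nos2, also named after its values were seen, read 0, 0 and 0 FPKM in control and 0.05, 0.03 and 0 FPKM in co-culture, against 23, 20.4 and 22.2 FPKM with IL-1β alone. Nos2 passed the filter only through its IL-1β libraries. So did Ass1 and Arg2, both among the 10 higher and named after their values were seen.

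The NF-kB pathway and its brakes had no change as large as 1. Of 34 tested, 12 were higher and 2 lower, with a median of 0.13. Tnip3, among the 12 and named after its values were seen, passed the filter only through its IL-1β libraries. Among the largest rises, Sod2, the mitochondrial superoxide dismutase, stood at 382 ± 10.2, 684 ± 2.24 and 1504 ± 26.3 FPKM, and Zc3h12a, a nuclease that destroys cytokine transcripts, at 27.2 ± 1.16, 45.6 ± 2.34 and 126 ± 4.52 FPKM. Irak3, an inhibitory member of the IL-1 receptor-associated kinases, was at 40.5 ± 0.526, 55.6 ± 0.626 and 113 ± 1.47 FPKM, and Nfkb1, the p105 precursor, at 35 ± 0.605, 45.6 ± 0.17 and 87.4 ± 0.566 FPKM. Among cytokine receptors, 8 of 20 were higher and 0 lower, around a median of 0.05, against 12.4% and 7.91% of all genes. The signalling receptor Il1r1 went from 31.1 ± 0.229 to 41.7 ± 1.59 FPKM, against 76.6 ± 0.858, and the scavenging chemokine receptors Ackr4 and Ackr3 stood at 18.6 ± 0.161, 30.8 ± 0.732 and 52.3 ± 0.739 FPKM and 39.3 ± 1.72, 49.7 ± 1.17 and 70.2 ± 1.03 FPKM. Il13ra2, a decoy for interleukin 13, read 0.77, 0.94 and 0.91 FPKM in control and 1.73, 1.77 and 2.02 FPKM in co-culture, against 15 ± 0.127. The interleukin 33 receptor Il1rl1 read 228 ± 6.07 and 227 ± 5.01 FPKM (log2 fold change -0.01 ± 0.03, adjusted p = 0.9), with 156 ± 4.67 under IL-1β.

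Immediate early and MAP kinase feedback genes were split, 12 of 37 higher and 5 lower, but the number lower was 2 without control replicate 2, and 3 without control replicate 1 or co-culture replicate 3. Ier3, a survival gene downstream of NF-kB, had the largest rise, at 48.9 ± 2.65, 80.4 ± 0.0896 and 376 ± 6.05 FPKM. Zfp36l1, which marks AU-rich transcripts for decay, stood at 35.5 ± 1.03, 45.6 ± 2.01 and 79.3 ± 2.25 FPKM, the MAP kinase phosphatase Dusp1 at 37.4 ± 0.291, 45.8 ± 1.97 and 69.7 ± 2.44 FPKM, and the AP-1 subunit Fosl1 at 24.4 ± 0.926, 30.1 ± 0.802 and 46.3 ± 1.73 FPKM. Of 17 interferon-stimulated genes, 2 were higher and 3 lower, with a median of -0.11, against 12.4% and 7.91% of all genes. The share higher was thus near that of all genes. The number higher was 1 under median-of-ratios scaling or without any 1 library other than control replicate 1. Ifit2, which blocks translation of viral RNA, fell from 12.9 ± 0.415 to 9.24 ± 0.127 FPKM, and the signalling factor Stat2 from 16.3 ± 0.425 to 13.3 ± 0.0721 FPKM, with 7.48 ± 0.436 and 13.1 ± 0.819 under IL-1β. Ifi27 rose, at 98 ± 4.81, 113 ± 1.05 and 166 ± 2.31 FPKM. In the MHC class I list 3 of 18 were higher and 1 lower (2 lower after quantile normalization), a share called near the 20.3% of all genes. The 3 were the light chain B2m (140.3 ± 4.07, 168 ± 4.65 and 237 ± 13.9 FPKM) and the heavy chains RT1-A2 (103 ± 2.96, 125 ± 5.71 and 161 ± 7.34 FPKM) and RT1-A1 (49.6 ± 1.19, 57.8 ± 2.57 and 72.9 ± 3.47 FPKM); the class I heavy chain genes are near-identical copies whose reads can be shared. The 1 that fell was the peptide-trimming enzyme gene Erap1, at 42.4 ± 0.753, 38.4 ± 0.812 and 34.5 ± 0.465 FPKM.

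Matrix-cutting enzymes went both ways. Among 23 genes of metalloproteinases and aggrecanases, 8 rose and 4 fell, and the median was -0.05. Mmp3, stromelysin 1, which cuts proteoglycans and activates other proteases, read 196, 191 and 199 FPKM in control and 838, 849 and 845 FPKM in co-culture. Mmp9, a gelatinase, read 0.61, 0.61 and 0.55 FPKM in control and 15.9, 18.1 and 17 FPKM in co-culture. Mmp10, stromelysin 2, read 24, 25.6 and 23.7 and 103, 108 and 114 FPKM. These 3, picked among genes without overlap, rose by 2.10 ± 0.03, 3.50 ± 0.04 and 2.11 ± 0.07 on the log2 scale (limma adjusted p = 1.1e-12, 1.1e-12 and 1.1e-08). With IL-1β they read 3556 ± 35.3, 621 ± 8.1 and 416 ± 42.9 FPKM. Mmp13, the collagenase that cuts type II collagen, did not differ detectably from control: it read 72.4, 73.5 and 73.6 FPKM in control, 72, 71.8 and 71.1 FPKM in co-culture and 742, 792 and 805 FPKM with IL-1β alone (log2 fold change against control -0.03 ± 0.03, adjusted p = 0.56). Mmp2, a constitutive gelatinase, stood at 567 ± 3.72, 689 ± 8.33 and 1223 ± 21 FPKM, and Adamts1, which cuts versican, at 82.2 ± 1.06, 109 ± 1.5 and 118 ± 2.72 FPKM. The 4 falls, named after their values were seen, were those of Adamts9 (11.7 ± 0.0493, 7.31 ± 0.155 and 6.8 ± 0.297 FPKM), Adamts15 (6.02 ± 0.283, 4.44 ± 0.248 and 1.95 ± 0.133 FPKM), Mmp14 (239.98 ± 5.04, 212 ± 2.81 and 279.5 ± 4.39 FPKM) and Mmp19 (107 ± 2.93, 95.1 ± 1.15 and 77.4 ± 0.592 FPKM). Of the aggrecanase genes Adamts4 and Adamts5, named after their values were seen, neither passed the threshold, at 3.23 ± 0.131, 2.87 ± 0.116 and 3.35 ± 0.683 FPKM and 31.8 ± 0.272, 30.8 ± 0.929 and 31.5 ± 2.51 FPKM.

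Of the protease inhibitors, 9 of 16 were higher and 3 lower, with a median of 0.24. Timp1, an inhibitor of metalloproteinases, went from 507 ± 5.15 to 613 ± 33.6 FPKM, against 650.2 ± 10.04. Its relative Timp3, which is held in the matrix, fell, at 4.54 ± 0.122, 3.27 ± 0.16 and 8.49 ± 0.254 FPKM. Cst6, a cysteine protease inhibitor, stood at 1.68 ± 0.205, 3.07 ± 0.0814 and 2.02 ± 0.0755 FPKM. In the plasminogen and cathepsin list 5 of 15 were higher and 3 lower, against 12.4% and 7.91% of all genes. The urokinase gene Plau stood at 18.9 ± 0.932, 25.9 ± 1.37 and 21.2 ± 1.09 FPKM, and the tissue-type activator gene Plat at 25.5 ± 0.384, 29.98 ± 1.51 and 219 ± 4.33 FPKM. Ctsh, a lysosomal aminopeptidase, rose, at 132 ± 4.26, 155 ± 2.7 and 274 ± 4.03 FPKM, and Ctsl, the most abundant cathepsin, fell, at 1388 ± 29.7, 1211 ± 31.5 and 896 ± 25.6 FPKM.

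Cartilage-type matrix genes were among the largest falls. Col2a1, the chain of type II collagen, read 159.9, 161 and 149.5 FPKM in control and 57, 57.2 and 55.1 FPKM in co-culture. Cilp, a protein of the cartilage intermediate layer, read 4.62, 5.16 and 4.76 FPKM in control and 0.94, 0.88 and 0.81 FPKM in co-culture. Comp, which binds collagen fibrils in cartilage, read 11.6, 13 and 11.7 FPKM in control and 5.2, 5.33 and 5.34 FPKM in co-culture. The changes of these 3 genes, picked among genes without overlap, were -1.46 ± 0.05, -1.64 ± 0.07 and -1.06 ± 0.07 on the log2 scale (limma adjusted p = 4.1e-09, 2.1e-08 and 1.3e-06). With IL-1β alone they stood lower again, at 18.1 ± 1.4, 0.3 ± 0.01 and 2.29 ± 0.312 FPKM. Of 8 chondrocyte markers tested, 7 were lower and none higher, with a median of -0.7. Acan, the core protein of aggrecan, stood at 24.1 ± 0.81, 13.3 ± 0.772 and 2.22 ± 0.0321 FPKM, and Col11a1, of the type XI collagen that seeds type II fibrils, at 84.4 ± 1.42, 49.9 ± 0.981 and 18.3 ± 0.19 FPKM. The chondrocyte list summed to 288.49 to 305.76 FPKM in the control libraries and 137.35 to 139.1 in co-culture, while Matn1, a defining cartilage gene, was listed at 0 in all 6. Whether a share of chondrocyte-like cells had a part in these falls was not tested.

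**Figure D3:**
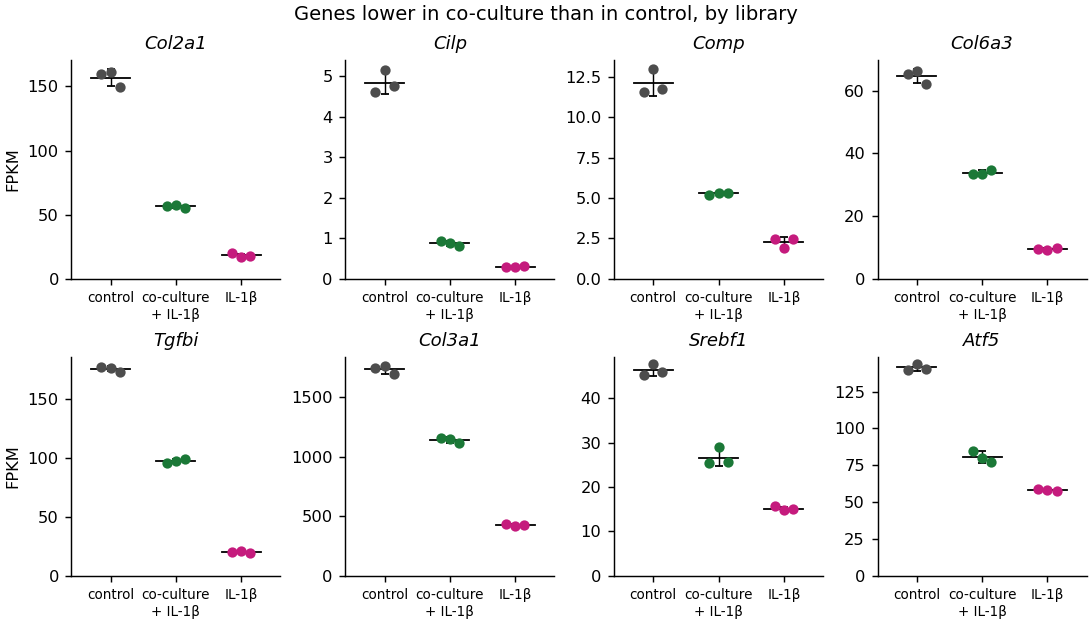
FPKM of 8 genes (linear axes from 0) in each of the 9 libraries, with points for libraries and bars for mean ± SD of 3. In every panel the 3 co-culture libraries lie below the 3 control libraries and above the 3 IL-1β libraries.

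The fall extended over the collagens, where 16 of 24 were lower and 1 higher, around a median of -0.29. Type VI collagen, which forms beaded filaments around cells, fell in all 3 chains tested: Col6a1 stood at 428 ± 8.53, 244 ± 2.87 and 109.6 ± 3.18 FPKM, Col6a3 at 64.5 ± 2.29, 33.8 ± 0.763 and 9.43 ± 0.225 FPKM and Col6a2, named after its values were seen, at 378 ± 9.26, 234 ± 5.71 and 134 ± 2.74 FPKM. Of the fibrillar chains, Col3a1 read 1748, 1759 and 1693 FPKM in control and 1158, 1148 and 1116 FPKM in co-culture, a change of -0.60 ± 0.03 on the log2 scale (adjusted p = 8.1e-08), against 425 ± 6.13 with IL-1β. Col1a1 read 3227, 3242 and 3039 FPKM in control and 2377, 2384 and 2348 FPKM in co-culture, again without overlap. Its partner chain Col1a2 stood at 759 ± 108, 618 ± 32.9 and 379 ± 43.2 FPKM and did not pass (adjusted p = 0.13), but did without control replicate 3 (adjusted p = 0.0194). Col5a3, of type V collagen, had one of the largest falls, at 22 ± 1.31, 10.7 ± 0.217 and 4.48 ± 0.301 FPKM. The exception was Col8a1, a short-chain collagen named after its values were seen, which rose, at 71.9 ± 4.5, 102 ± 3.06 and 158 ± 6.19 FPKM. Genes that modify and crosslink collagen were mixed, 9 of 23 lower and 3 higher, with 13 lower and 2 higher after quantile normalization. Loxl3, a lysyl oxidase, fell, at 132 ± 1.28, 95.7 ± 2.04 and 45.6 ± 0.836 FPKM, whereas Plod2, the hydroxylase of telopeptide lysines, rose, at 299 ± 7.58, 357 ± 7.86 and 315 ± 11.1 FPKM, and so did P4ha2, a prolyl hydroxylase subunit, at 105 ± 0.83, 123 ± 3.37 and 198 ± 4.26 FPKM. Sparc, a collagen-binding protein, stood at 2445 ± 20.6, 2107 ± 13.4 and 1970.0 ± 26.5 FPKM.

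Other matrix genes went both ways. Mgp, matrix Gla protein, an inhibitor of calcification, read 1079.8, 1082 and 1112 FPKM in control and 2981, 2889 and 2783 FPKM in co-culture, a 2.64-fold rise that made it one of the more abundant transcripts. Dcn, decorin, a small proteoglycan that binds collagen and TGF-beta, read 639, 646 and 638 FPKM in control and 1185, 1203 and 1201 FPKM in co-culture. Nov, a CCN family protein, stood at 32.4 ± 0.468, 76.1 ± 0.966 and 192 ± 2.82 FPKM. These 3 rose by 1.40 ± 0.04, 0.90 ± 0.03 and 1.21 ± 0.03 on the log2 scale, and Mgp and Dcn read 11446 ± 335 and 3112 ± 110.1 FPKM with IL-1β. In the other direction, Tgfbi, an adhesive protein induced by TGF-beta, read 177, 176 and 173 FPKM in control and 95.8, 97.1 and 98.7 FPKM in co-culture (log2 fold change -0.85 ± 0.03), against 20.2 ± 0.666. Falling with it were the matricellular genes Thbs4 (44.2 ± 1.14, 22.9 ± 0.665 and 12.3 ± 0.304 FPKM), Ctgf (378 ± 9.07, 281 ± 5.18 and 98.2 ± 3 FPKM) and Wisp2 (118 ± 1.59, 62 ± 3.72 and 24.1 ± 1.32 FPKM), the last 2 of the CCN family. Fn1, fibronectin, stood at 2874 ± 48.5, 2365 ± 13.9 and 2397 ± 60.05 FPKM. In all, 11 of 39 elastic fibre and adhesive genes were higher and 16 lower, and 10 of 28 proteoglycan and hyaluronan genes were higher and 10 lower. After quantile normalization 8 were higher in each list, and the numbers lower were unchanged. In the latter list Lum, lumican, rose, at 1245 ± 21.6, 1542 ± 14.4 and 2429.8 ± 93.4 FPKM, Tmem2, a cell-surface hyaluronidase, rose, at 15 ± 0.396, 23.2 ± 0.61 and 53.4 ± 0.827 FPKM, and Bgn, biglycan, stood at 1788 ± 30.8, 1785 ± 18.3 and 1772 ± 40.8 FPKM.

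Prg4, the gene of the joint lubricant lubricin, read 96.8, 95.8 and 95.8 FPKM in control and 137, 141 and 142 FPKM in co-culture, a rise of 0.54 ± 0.03 on the log2 scale, against 297 ± 3.04 FPKM with IL-1β. Of 10 synovial lining markers 5 were higher and 1 lower. Cadm1, an adhesion molecule of that list, went from 6.47 ± 0.175 to 11.4 ± 0.482 FPKM, with 16.7 ± 0.361 under IL-1β. Fibroblast markers were mixed, 3 of 14 higher and 6 lower, with the surface marker Thy1 at 758 ± 19.8, 611 ± 14.9 and 669 ± 6.59 FPKM.

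Growth factor genes went both ways. Angptl4, an inhibitor of lipoprotein lipase, stood at 18.1 ± 1.41, 49 ± 0.392 and 138 ± 1.47 FPKM. Igf1 read 100.2, 100.2 and 102 FPKM in control and 66.1, 64.5 and 65.8 FPKM in co-culture, a change of -0.61 ± 0.03 on the log2 scale (adjusted p = 1.5e-07), against 41.1 ± 1.47 with IL-1β. The whole list of IGF, FGF and related genes had 13 of 34 higher and 11 lower. Fgf2, among the 13 and named after its values were seen, passed the filter only through its IL-1β libraries. The number higher was 12 after median-of-ratios scaling, 10 after quantile normalization and 9 to 14 with 1 library left out. The number lower was 11 and 12 under these scalings and 9 to 11 with 1 library left out. Gfra1, a receptor for glial cell line-derived factor, fell, at 12.9 ± 0.678, 5.54 ± 0.193 and 1.69 ± 0.0265 FPKM. Among genes of the TGF-beta superfamily 14 of 41 were higher and 5 lower; the first number was 11 and 10 under the 2 scalings and 9 without control replicate 3, and the second was 3 without control replicate 1 or 2, or without co-culture replicate 1 or 3. Bmp6, a bone morphogenetic protein, stood at 0.74 ± 0.201, 3.87 ± 0.515 and 25.4 ± 1.97 FPKM, and Inhba, the activin A subunit, at 12.1 ± 0.232, 19.6 ± 0.883 and 81.9 ± 5.28 FPKM. The BMP antagonist gene Grem1 rose as well, at 307 ± 3.82, 430.2 ± 8.93 and 672 ± 13.2 FPKM.

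In the Wnt list 1 of 14 was higher and 4 lower, against 12.4% and 7.91% of all genes. The number lower was 1 without control replicate 1, control replicate 2 or co-culture replicate 1, and 2 without any other 1 of the 6 libraries. The 1 that rose was Sfrp2, a secreted Wnt antagonist, at 15, 15.6 and 15 FPKM in control and 69.6, 73.7 and 69.4 FPKM in co-culture (log2 fold change 2.15 ± 0.03, adjusted p = 3.3e-12). Sfrp2 is also a marker of dermal fibroblasts, the cells in the upper chamber. Of 11 such markers tested 3 were higher, Sfrp2, Twist2 and En1, and 3 lower, around a median of -0.15. The list summed to 105.22 to 115.85 FPKM in control and 161.77 to 173.74 in co-culture, and most of that rise was that of Sfrp2. Sfrp2 read 325 ± 5.29 FPKM with IL-1β and no dermal fibroblasts. Twist2 stood at 29.5 ± 0.886, 43.3 ± 3.95 and 86 ± 3.47 FPKM and En1 at 3.58 ± 0.249, 5.46 ± 0.127 and 12.6 ± 0.44 FPKM, so that all 3 were higher still in the group without dermal fibroblasts. Dlk1, another marker of the list, fell, at 10.5 ± 0.56, 6.37 ± 0.327 and 5.67 ± 0.282 FPKM, and the dermal marker Dpp4 read 0 to 0.01 FPKM in the 6 libraries. Of limb and skin positional factors, 5 of 29 were higher, Twist2 and En1 among them, and 2 lower, a share called near the 20.3% of all genes, around a median of 0; 3 were higher under median-of-ratios scaling or without any 1 of the 6 libraries other than control replicate 1, and 1 was lower without any 1 of the 6. Prrx1 stood at 229 ± 5.53, 285 ± 8.38 and 368 ± 9.6 FPKM and Tbx18 at 16.7 ± 0.344, 13.6 ± 0.305 and 16.6 ± 0.155 FPKM.

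Contractile and cytoskeletal genes showed no common direction, 6 of 29 higher and 6 lower with a median of 0.01; quantile normalization gave 4 and 8. Acta2, smooth muscle actin, the marker of myofibroblasts, read 155, 156 and 163 FPKM in control and 129, 131 and 123 FPKM in co-culture, a change of -0.31 ± 0.03 on the log2 scale against an IL-1β level of 59 ± 1.32 FPKM. Lmod1, an actin nucleator of smooth muscle, stood at 3.62 ± 0.127, 1.76 ± 0.239 and 0.397 ± 0.0569 FPKM, and Vcl, vinculin, at 57.2 ± 1.41, 47.4 ± 0.539 and 29.1 ± 0.71 FPKM. Cnn2, a calponin, rose, at 179 ± 5.22, 207 ± 1.99 and 224 ± 4.94 FPKM.

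Genes of lipid synthesis were mostly lower. Of 26 genes of cholesterol synthesis and uptake 20 were lower and none higher, with a median of -0.2, and none of the 26 had a fold change above 0. Srebf1, the transcription factor that drives lipid synthesis, read 45.3, 47.6 and 46 FPKM in control and 25.3, 29 and 25.7 FPKM in co-culture, a change of -0.78 ± 0.05 on the log2 scale (adjusted p = 9.1e-07), against 15.1 ± 0.463 with IL-1β. Hmgcs1, at the entry of the mevalonate pathway, went from 177 ± 0.136 to 139 ± 1.3 FPKM, with 93.7 ± 2.34 under IL-1β. Insig1, the sterol sensor that holds SREBP back, stood at 167 ± 2.41, 130.3 ± 0.125 and 105 ± 2.07 FPKM, and Cyp51, a sterol demethylase, at 206 ± 3.09, 166 ± 1.65 and 127 ± 3.73 FPKM. Of 27 fatty acid and lipid droplet genes, 12 were lower and 2 higher; 1 was higher under either scaling or without any 1 of the 6 libraries other than co-culture replicate 3. The desaturase genes Scd, Scd2 and Fads1 stood at 299 ± 3.93, 209 ± 1.69 and 178 ± 4.55 FPKM, 599 ± 12.4, 427 ± 1.71 and 237 ± 2.27 FPKM and 96.5 ± 0.819, 74.3 ± 0.75 and 39.2 ± 0.0982 FPKM. Thrsp, which promotes fatty acid synthesis, had one of the 20 largest falls, at 13.9 ± 0.309, 6.99 ± 0.719 and 3.36 ± 0.142 FPKM.

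Adipocyte markers fell beside them, 10 of 10 tested, with a median of -0.44. Fabp4, the fatty acid carrier of adipocytes, read 561, 547 and 588 FPKM in control and 437, 413 and 432 FPKM in co-culture, against 338 ± 17.1. Adipoq, adiponectin, stood at 38.6 ± 1.95, 26.9 ± 0.881 and 14.2 ± 0.123 FPKM, and Car3, a carbonic anhydrase of fat and muscle, at 65.8 ± 1.72, 43.7 ± 0.523 and 7.37 ± 0.788 FPKM. The list summed to 984.84 to 1031.44 FPKM in control and 763.59 to 788.47 in co-culture. The hormone gene Lep was listed at 0 in the control libraries and at 0.02 FPKM in each co-culture library. Whether adipocyte-like cells had a part in the lower lipid genes was not tested.

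In the list of ATF4, the transcription factor of the amino acid response, and genes it is known to drive, 31 of 36 were lower and none higher, with a median of -0.27; the 31 include Atf4 itself. Atf5, a related factor, read 139.8, 144 and 140.2 FPKM in control and 84.9, 79.97 and 76.9 FPKM in co-culture, against 58.2 ± 0.659. Trib3, a pseudokinase that restrains ATF4, stood at 18.6 ± 0.738, 9.8 ± 0.707 and 8.68 ± 0.865 FPKM. Atf4, at 308 ± 2, 273 ± 7.09 and 278 ± 2.97 FPKM, changed by -0.17 ± 0.03 on the log2 scale (adjusted p = 0.001), while Atf5 changed by -0.80 ± 0.04 (adjusted p = 3.8e-08). The enzymes of serine and asparagine synthesis were lower: Phgdh stood at 36.6 ± 1.24, 22.7 ± 1.01 and 9.85 ± 0.464 FPKM and Asns at 69.9 ± 1.38, 48.8 ± 1.11 and 43.1 ± 2.16 FPKM. Nupr1, a stress-induced chromatin protein, was at 186 ± 6.66, 131 ± 4.08 and 125 ± 7.42 FPKM. All 8 aminoacyl-tRNA synthetase genes of the list were lower, by 0.09 to 0.32. Chaperones of the endoplasmic reticulum had few calls: 2 of 28 were higher and 2 lower, with a median of 0.02, and the numbers lower were 7 after quantile normalization and 0 or 1 without any control library or without co-culture replicate 1 or 3. Sdf2l1, a chaperone cofactor, stood at 33.7 ± 1, 38.9 ± 1.53 and 56.2 ± 0.765 FPKM, and Ero1a, an oxidase of disulfide formation, at 65.6 ± 0.191, 72.8 ± 1.19 and 77.7 ± 1.03 FPKM.

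**Figure D4:**
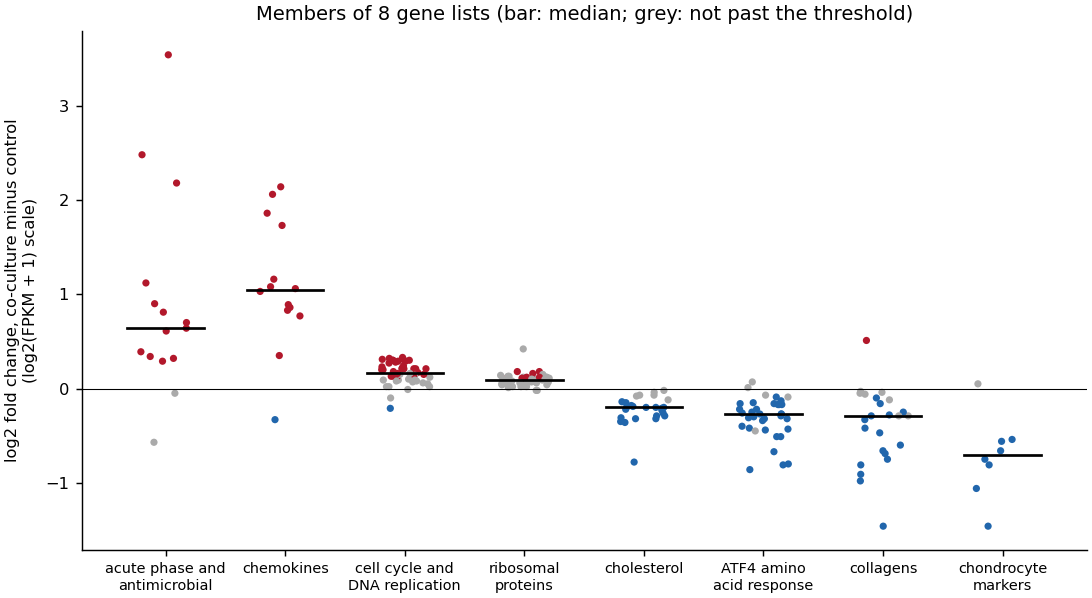
Log2 fold change, co-culture minus control (vertical, log2(FPKM + 1) scale), of each tested member of 8 lists, with a bar at the list's median; red points were higher and blue points lower at an adjusted p under 0.05, and grey points did not pass. Acute phase and chemokine members reach 3.54 and 2.14, with medians of 0.64 and 1.04, whereas the cell cycle, cholesterol and ATF4 lists have medians of 0.16, -0.2 and -0.27.

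Cell cycle and DNA replication genes shared a small rise: 31 of 50 were higher and 1 lower, with a median of 0.16, and 28 and 27 were higher after median-of-ratios scaling and quantile normalization. The 1 lower call was lost without any 1 of the 6 libraries other than co-culture replicate 3. Mcm5, a subunit of the replication helicase, read 43.5, 43 and 41.2 FPKM in control and 54, 53.7 and 52.3 FPKM in co-culture. Fen1, the flap nuclease of lagging strand synthesis, read 31.6, 29.8 and 31 and 39.4, 37.4 and 38 FPKM. The changes were 0.32 ± 0.03 and 0.31 ± 0.04 on the log2 scale, small but without overlap between the groups. Mcm3 and Mcm7 stood at 53.9 ± 0.173, 66.5 ± 0.8 and 49.5 ± 0.851 FPKM and 62.3 ± 0.776, 76.4 ± 1.88 and 57 ± 1.26 FPKM, and the ribonucleotide reductase subunit Rrm2 at 284 ± 3.18, 328 ± 3.54 and 259 ± 1.75 FPKM. With IL-1β alone, Mcm5 (38.7 ± 0.805 FPKM), Mcm3, Mcm7 and Rrm2 were below their control levels, and Fen1 (34.9 ± 0.659 FPKM) was above its own. Among inhibitors of the cycle and p53 targets 4 of 21 were lower and 1 higher, or 3 higher without co-culture replicate 2. Over all genes 7.91% were lower and 12.4% higher. Cdkn2b, an inhibitor of CDK4 and CDK6, stood at 18.7 ± 0.303, 11.9 ± 0.747 and 13.3 ± 0.677 FPKM, and Gadd45a, a DNA damage gene, at 52.2 ± 1.15, 38.1 ± 0.586 and 27.4 ± 2.05 FPKM.

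Glycolysis and hypoxia genes leaned the same way, 17 of 35 higher and 1 lower with a median of 0.1, but 11 higher and 2 lower after quantile normalization, and none lower without any 1 of the 6 libraries other than control replicate 3. Egln3, an oxygen-sensing prolyl hydroxylase, read 1.58, 2.4 and 1.76 FPKM in control and 7.07, 8.03 and 7.23 FPKM in co-culture, the largest rise of the list at 1.54 ± 0.09 on the log2 scale, against 80.7 ± 2.03 FPKM with IL-1β. The lactate carriers Slc16a3 and Slc16a1 stood at 134 ± 3.89, 188 ± 2.01 and 206 ± 3.4 FPKM and 87.1 ± 1.73, 119 ± 0.847 and 269 ± 9.62 FPKM, and the vasodilator peptide gene Adm at 134 ± 1.46, 182 ± 7.36 and 462 ± 5.79 FPKM. Oxidative phosphorylation genes were near control, with 3 of 39 higher and none lower, against 12.4% and 7.91% of all genes. Without control replicate 3 the number higher was 5. Cycs, cytochrome c, stood at 233 ± 8.36, 273 ± 12.4 and 295 ± 17.6 FPKM. Of 50 ribosomal protein genes 7 were higher, a share near the 12.4% of all genes that were higher. The count was 4 and 3 under the 2 scalings and 0 to 9 with 1 library left out. It was 0 without control replicate 2 and 1 without control replicate 1 or co-culture replicate 1. After quantile normalization 2 were lower.

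Stress and metal-binding genes had a few clear members. The metallothionein genes Mt2A and Mt1, which bind zinc and copper, stood at 1746 ± 28.2, 2739.7 ± 82.6 and 4162 ± 134 FPKM and 903 ± 32.2, 1242 ± 41.6 and 1722 ± 66.1 FPKM, and the peroxide-reducing Prdx5 at 1117 ± 16.4, 1516 ± 82.1 and 2063 ± 48.8 FPKM. Ftl1, the ferritin light chain, fell, at 3701 ± 52.4, 3145 ± 64.7 and 2131 ± 26.1 FPKM. In all, 9 of 33 antioxidant and NRF2 target genes were higher and 6 lower, or 7 and 13 after quantile normalization. Heat shock and proteasome genes had 8 of 26 higher and 1 lower, or 3 and 1 after quantile normalization; 5 were higher without control replicate 1, control replicate 2 or co-culture replicate 3. The chaperone gene Hsph1 stood at 61.3 ± 1.38, 76.7 ± 1.47 and 126 ± 2.43 FPKM. Of 21 glucocorticoid and circadian genes 2 were higher and 5 lower, with 1 higher under either scaling or without control replicate 1 or 2 or co-culture replicate 1 or 2. Hsd11b1, which regenerates active glucocorticoid, stood at 64.6 ± 3.25, 85 ± 1.67 and 129 ± 6.3 FPKM, and the glucocorticoid-induced genes Tsc22d3 and Sgk1 at 23.2 ± 0.565, 18.9 ± 0.843 and 19.1 ± 0.751 FPKM and 13.3 ± 0.592, 10.6 ± 0.59 and 12 ± 0.56 FPKM.

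**Figure D5:**
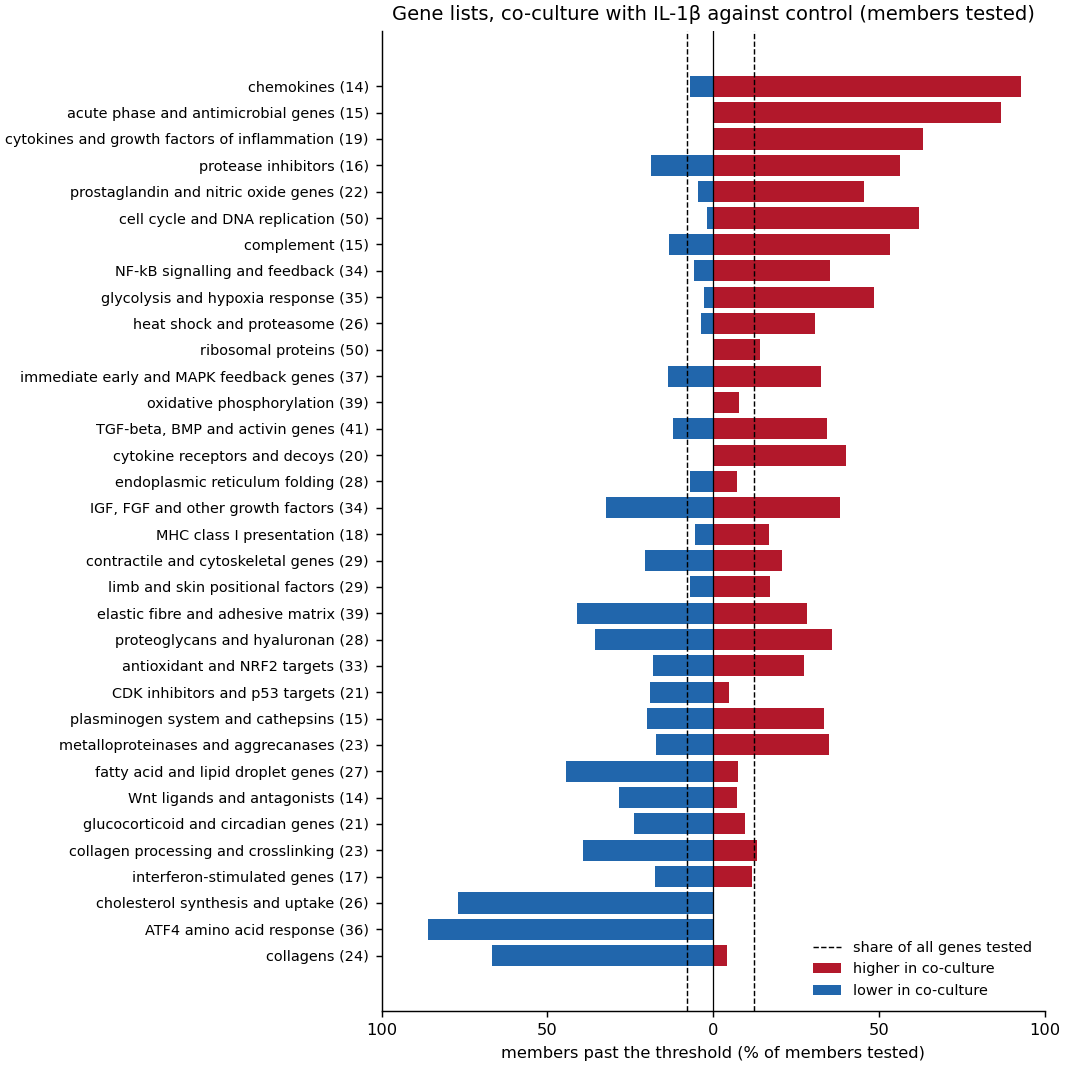
Share of tested members of each of 34 gene lists that were higher (red, to the right) or lower (blue, to the left) in co-culture at an adjusted p under 0.05, with the number of members tested in brackets and lists ordered by median fold change. Dashed lines mark the shares over all genes tested, 12.4% higher and 7.91% lower; chemokines and acute phase genes lie far to the right of them and collagens, ATF4 and cholesterol genes far to the left.

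Genes called against control were also ranked by how far they lay beyond both other groups, and members of the 8 furthest above and the 8 furthest below are given here. They were chosen by that pattern, so their levels are a description, and their difference from IL-1β alone was not tested here. Lamb3, a laminin chain of epithelial basement membranes, read 2.15, 2.23 and 2.22 FPKM in control, 4.9, 4.82 and 4.63 FPKM in co-culture and 3.18, 3.14 and 2.99 FPKM with IL-1β. Cxcl13, a B cell attractant, read 16.4, 14.9 and 16.5, 26.9, 26.9 and 29.8 and 19.7, 19.7 and 20.4 FPKM in the same order. Itga3, the integrin subunit that binds laminins of this kind, read 25, 26.4 and 23.5, 40.4, 40.4 and 39.4 and 26, 23.9 and 25.6 FPKM. In all 3 the lowest co-culture library exceeded every library of the other groups. Angptl8, a regulator of lipoprotein lipase, stood at 17.1 ± 1.09, 25.9 ± 1.13 and 17.5 ± 0.401 FPKM, and Erfe, erythroferrone, at 9.53 ± 0.235, 13.8 ± 0.442 and 9.55 ± 0.35 FPKM. Below both groups lay Igfbp3, a carrier of insulin-like growth factors, at 29.8 ± 0.901, 21.2 ± 0.584 and 31.3 ± 1.33 FPKM, Igfbp5, another carrier, at 1.52 ± 0.387, 0.667 ± 0.111 and 1.74 ± 0.176 FPKM, and Abi3bp, a matrix protein, at 32.7 ± 0.502, 24.4 ± 0.55 and 37.7 ± 1.36 FPKM. Cyp26b1, which clears retinoic acid, was at 1.56 ± 0.138, 0.93 ± 0.0854 and 2.86 ± 0.338 FPKM.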

How the data were processed

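Messenger RNA of 9 libraries in 3 groups of 3 was measured by RNA-seq. The authors deposited one table of FPKM values per gene, per the file headers; names of an aligner, counter or annotation were not given in the sources used here. The submitters' processing notes name the mouse build GRCm38, while the rows carry rat gene identifiers, so no coordinate was taken from the table. Of the identifiers, 16152 (93.4%) were found in RefSeq GRCr8, which also gave the promoters. Low values did not resolve into whole-read steps (10 of 1937 genes examined were usable), so depth is unknown and no counting interval is given. Values were taken as log2(FPKM + 1) for genes with a mean of at least 1 FPKM over 9 libraries. limma 3.58.1 (R 4.3.3, trend and robust settings) was fitted on all 9 libraries, which share one estimate of spread, with 1 coefficient per group, and p-values were adjusted by Benjamini-Hochberg over 11372 genes at 0.05. Ratios of mean FPKM are given as fold. The fit was tested on simulated data. Named genes were the 20 largest rises and 20 largest falls without overlap, the 8 largest ratios each way with both means at least 1, per list the 4 smallest p and 3 highest levels, the 8 called genes furthest above and below both other groups, and the 10 highest in co-culture; those outside are marked. The comparison and the gene lists were chosen with earlier results of these data known. Alternatives were the pseudocount, the filter, 2 scalings, 6 libraries only, plain limma, a replicate block and each library left out. Some genes that the rule names are not reported here.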

Additional observations from a re-analysis of the deposited data

How the results depend on the processing

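The total called was between 1662 and 2309 when 1 library was left out and between 2080 and 2286 under the other alternatives. With a pseudocount of 0.1 in place of 1, 68 genes rose and 17 fell by at least 1, since low genes change more on that scale. Over all genes tested, the median log2 fold change was 0.02 with that pseudocount, 0.004 with no filter, 0.025 with a minimum of 5 FPKM, 0 after median-of-ratios scaling, -0.006 after quantile normalization, and 0.015 to 0.02 with 1 library left out. Among the genes named, Csf1 lost its call under quantile normalization (log2 fold change 0.05, limma adjusted p = 0.303). The replicate block gave 2227 calls. Numbers shared by control and co-culture libraries had correlated deviations of 0.082, 0.189 and 0.091. Unlike numbers ran from -0.221 to 0.133, most of them below 0, with the highest for control replicate 3 and co-culture replicate 1. Whether the numbers mark pairs is thus not settled, and the main fit did not take them as pairs. Unknown depth limits what can be said of genes near 1 FPKM.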
